A study of Homo sapiens with 3 samples.

Results

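The cholesterol and fatty acid synthesis genes are 36 human genes, listed by name for their place in lipid synthesis, in a list drawn up with earlier results of these data known. They cover the enzymes that build cholesterol from acetyl-CoA, the proteins that sense and move sterols, and the enzymes that make, lengthen and desaturate fatty acids. A probe was named here for 35 of the 36 genes, 52 probes in all, on an array that named 20043 genes. HCC-LM3 cells, a human hepatocellular carcinoma line of epithelial form, were incubated for 48 h with 20 μM cyclopamine, with 20 μM GANT61, or with the vehicle DMSO. Total RNA from each condition was labelled and hybridized to 1 Illumina HumanHT-12 v4 BeadChip array, so that 3 arrays make up the series. Cyclopamine is a steroidal alkaloid that antagonizes SMO, the signal transducer of the Hedgehog pathway in the membrane. GANT61 is not a steroid and inhibits the GLI transcription factors at the end of the same pathway. The conditions ask what inhibition of Hedgehog signaling at either level does to expression in these cells, and since dose and time were equal, the compounds can also be set against each other. The labels give 1 sample of a single cell line in each condition, so there was no replicate error, no test between conditions was possible, and no p-value is given. Both compounds were compared with the same DMSO array, and whatever is particular to that array enters both comparisons.

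Cholesterol synthesis starts from acetyl-CoA and runs through mevalonate, the isoprenoid farnesyl pyrophosphate, squalene and lanosterol, and the liver is a main site of it. Fatty acid synthesis draws on the same acetyl-CoA, which ACACA carboxylates in the cytosol to malonyl-CoA for the synthase FASN. Genes of both routes are known targets of the SREBP transcription factors, which SCAP escorts out of the endoplasmic reticulum when sterols are scarce and which INSIG proteins hold back when sterols are plentiful.

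Expression was read as the normalized signal intensity of a probe, on a linear scale without background subtraction, and differences are given on the log2 scale, where 1 is a 2-fold difference. The brightest probe stood for each gene, and intensities of different genes cannot be set against each other, since probes differ in brightness for equal RNA. The most common intensity of each array, 42.5, was taken as background, and a gene entered the counts if it exceeded 1.5 times this value, 63.75, on at least 1 array. By this rule 32 of the 35 genes entered, 31 of them above the limit on all 3 arrays, as did 10441 genes in the whole table. The 3 arrays had medians of 47.6, 47.6 and 47.7 with cyclopamine, GANT61 and DMSO, and 15786, 15785 and 15786 probes above the limit. In place of a replicate error, the spread between different probes of the same gene was used, in 5 classes of brightness. This SD was 0.29 to 0.45 for cyclopamine against DMSO, 0.36 to 0.49 for GANT61 against DMSO and 0.18 to 0.24 for cyclopamine against GANT61. It covers probes on these arrays and not the variation between cultures. Of 11 hepatocyte and epithelial markers with a probe, 3 were above background, namely KRT8, KRT18 and, near the limit, ALB. KRT8 read 335 with cyclopamine, 286 with GANT61 and 1423 with DMSO. The secreted liver proteins AFP, APOA1, APOA2, APOH, TTR, SERPINA1, FGB and TF were not above background on any array, so that most of the defining hepatocyte markers were not detected on these arrays. None of the 4 endothelial and 4 immune markers with a probe was above background on any array, and their summed intensities were 164 to 171 and 179 to 193. Of 5 fibroblast markers, COL1A1 read 145, 74.9 and 205 with cyclopamine, GANT61 and DMSO, PDGFRB was above background only with DMSO, and the list summed to 333, 243 and 415. The part of these cell markers in the results was not tested.

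Of 12 reference genes listed, 9 had a probe above background, and their median lay at −0.54 for cyclopamine and −0.70 for GANT61 against DMSO. The 9 genes did not move together. With cyclopamine 8 were below DMSO, PPIA by more than 2-fold, and B2M was above it, at 0.14. With GANT61 6 were below and 3 above, from −1.40 for YWHAZ to 0.53 for HPRT1. The median thus does not stand for a shift common to these genes. Scaling each array on this median would raise every difference from DMSO by 0.54 with cyclopamine and by 0.70 with GANT61. It would lower every difference between cyclopamine and GANT61 by 0.17. Under this scaling the median of all genes would lie at 0.57 for cyclopamine and 0.72 for GANT61, and a gene that is lower by less than the shift would be higher. This concerned 8 of the 22 members below DMSO with cyclopamine and 8 of the 20 with GANT61. The 2 scalings cannot be told apart with these arrays, and the deposited one is used below unless stated.

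Promoters are shown for the 5 members whose transcripts stood furthest from DMSO with cyclopamine, CYP51A1 above it and MVK, MVD, DHCR7 and SREBF1 below. The windows come from RefSeq on GRCh38.p14 and run from 250 bases before to 50 bases after an annotated start, on the strand of the gene. CYP51A1 lies on the minus strand at chr7:92134428-92134727, MVD on the minus strand at chr16:88663042-88663341, MVK on the plus strand at chr12:109573544-109573843, DHCR7 on the minus strand at chr11:71448344-71448643 and SREBF1 on the minus strand at chr17:17836937-17837236. Capitals mark matches, on either strand, to the NF-Y box CCAAT and to the GC box GGGCGG, the elements that known SREBP target promoters carry beside the SREBP site.
CYP51A1: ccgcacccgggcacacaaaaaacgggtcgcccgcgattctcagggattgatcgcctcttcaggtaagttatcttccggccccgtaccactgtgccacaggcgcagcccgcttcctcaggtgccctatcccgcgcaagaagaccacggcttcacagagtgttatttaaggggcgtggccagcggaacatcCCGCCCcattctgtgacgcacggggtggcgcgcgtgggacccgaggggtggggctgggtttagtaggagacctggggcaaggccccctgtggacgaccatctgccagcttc
MVD: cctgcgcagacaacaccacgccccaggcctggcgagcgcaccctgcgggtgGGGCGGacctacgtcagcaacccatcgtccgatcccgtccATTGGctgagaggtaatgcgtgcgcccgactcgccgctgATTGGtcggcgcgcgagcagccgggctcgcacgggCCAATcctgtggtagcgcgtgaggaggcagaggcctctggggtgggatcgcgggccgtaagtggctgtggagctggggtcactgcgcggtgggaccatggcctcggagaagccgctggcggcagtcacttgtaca
MVK: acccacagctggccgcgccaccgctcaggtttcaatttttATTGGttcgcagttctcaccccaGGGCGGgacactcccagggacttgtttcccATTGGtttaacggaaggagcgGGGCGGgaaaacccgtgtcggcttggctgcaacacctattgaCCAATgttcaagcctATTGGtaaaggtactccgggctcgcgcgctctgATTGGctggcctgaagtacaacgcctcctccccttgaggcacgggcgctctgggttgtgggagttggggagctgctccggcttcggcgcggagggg
DHCR7: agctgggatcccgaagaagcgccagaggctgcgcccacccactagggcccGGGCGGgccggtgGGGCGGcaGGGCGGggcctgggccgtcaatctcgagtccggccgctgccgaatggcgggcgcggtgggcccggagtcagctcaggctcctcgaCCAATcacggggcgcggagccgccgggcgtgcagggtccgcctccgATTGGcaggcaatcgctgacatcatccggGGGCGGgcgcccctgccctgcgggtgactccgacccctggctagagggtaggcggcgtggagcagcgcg
SREBF1: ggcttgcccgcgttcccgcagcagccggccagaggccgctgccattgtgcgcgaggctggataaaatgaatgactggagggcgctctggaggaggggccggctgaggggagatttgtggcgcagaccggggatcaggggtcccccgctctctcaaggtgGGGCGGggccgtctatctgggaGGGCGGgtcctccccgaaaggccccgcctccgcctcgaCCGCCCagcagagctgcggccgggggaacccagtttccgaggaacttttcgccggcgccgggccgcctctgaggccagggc

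In these windows MVK had 5 CCAAT boxes and 2 GC boxes, MVD had 3 and 1, and DHCR7 had 2 and 4. SREBF1 had 3 GC boxes and CYP51A1 had 1, with no CCAAT box in either window. DHCR7 has another annotated start, and the window there held none of the motifs searched. Neither the SREBP site TCACNCCAC nor the E-box CACGTG matched any of the 5 windows. Over the 32 members with a window in the table, CCAAT occurred in 25 (78.1%, against 39.7% of 27305 genes) and GGGCGG in 30 (93.8%, against 48.3%). The E-box was found in 5 members (ELOVL5, INSIG1, LSS, SC5D and SCAP; 15.6%, against 8.77%) and the SREBP site in SREBF2 alone (3.13%, against 1.39%). The members' windows were also richer in G and C, with a median of 67.8% against 58.7% over all windows, and a GC box is itself made of these letters. The 27305 genes are all those with a window, not only genes above background here. They were not matched to the members in expression or in G and C content, for CCAAT or any other motif. A match is only a run of letters, and its absence says only that the letters are not in that window.

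With cyclopamine, 7 of the 32 genes were at least 2-fold lower than with DMSO, namely MVK, MVD, SQLE, TM7SF2, DHCR7, SREBF1 and FASN, against 6.31% of all genes above background. One enzyme alone, CYP51A1, was at least 2-fold higher, against 4.70% of all genes. With GANT61, 10 of the 32 were at least 2-fold lower, namely MVK, PMVK, MVD, LSS, TM7SF2, DHCR7, SREBF1, ACACB, FASN and FADS1, against 9.64% of all genes. CYP51A1 was again the only member at least 2-fold higher, against 8.16% of all genes. The 7 lower genes make 21.9% of the members and the 10 make 31.3%, so both shares lie above those of all genes. MVK, counted in both, entered only through the DMSO array, where it is high. Since the list was drawn up with earlier results of these data known, the shares are a description only. The share higher, 3.13%, is 1 gene, too few to be told from the shares of all genes. The members' median difference was −0.30 with cyclopamine and −0.31 with GANT61, against 0.033 and 0.018 over all genes. With reference gene scaling the members' medians turn to 0.24 and 0.40, and those of all genes to 0.57 and 0.72. The members' medians thus stay below those of all genes under this scaling too. With that scaling MVK is the only member still past 2-fold downward with cyclopamine by its measured value, at −1.06, although as a bound it is then only at least 1.67-fold lower. No member passes 2-fold downward with GANT61, and CYP51A1 stays at least 2-fold higher with each. In RNA from a whole culture, fewer cells expressing a gene and less of its RNA per cell cannot be told apart.

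**Figure D1:**
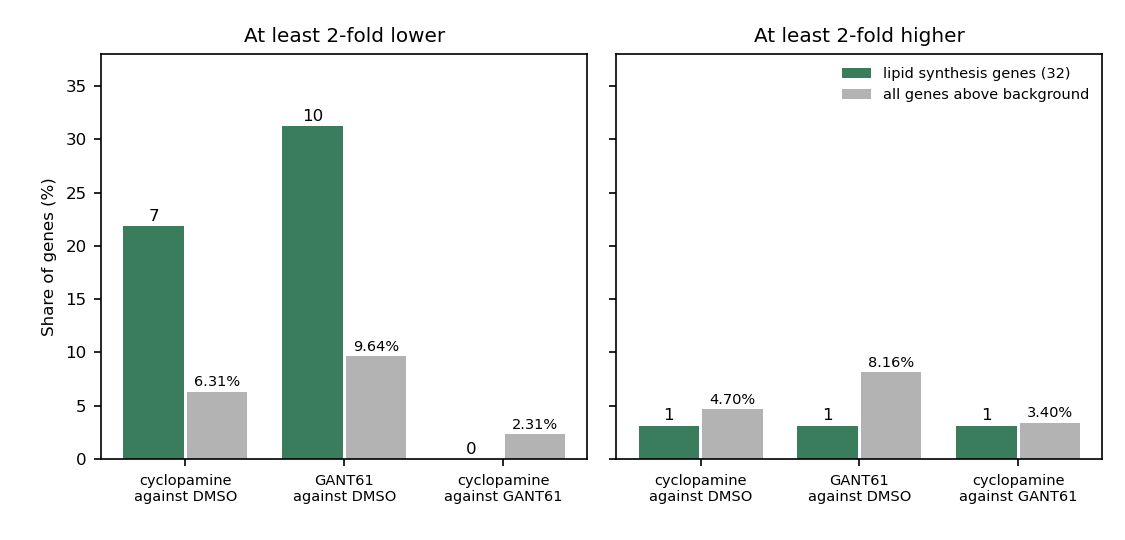
Share of genes, in percent, that were at least 2-fold lower (left) or higher (right) in each comparison, for the 32 lipid synthesis genes above background (green, with the number of genes) and for all 10441 genes above background (grey). The green bars stand at 7 and 10 genes lower with cyclopamine and GANT61 against DMSO, above grey bars of 6.31% and 9.64%, and at 1 gene higher in each comparison.

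The first segment of the sterol route leads from acetyl-CoA to farnesyl pyrophosphate, and all 7 of its genes were above background. ACAT2, which joins acetyl-CoA units to acetoacetyl-CoA, read 2358 with cyclopamine, 2492 with GANT61 and 3611 with DMSO, a difference of −0.61 and −0.54. A dimmer probe of the same gene, at 69.9, 79.5 and 74.8, gave −0.10 and 0.09. HMGCS1, the HMG-CoA synthase, read 1676, 1851 and 2079 in the same order of conditions. Its differences of −0.31 and −0.17 were within 1 SD between probes. The kinases and the decarboxylase that follow stood further from DMSO. MVK, mevalonate kinase, read 51.1 with cyclopamine and 54.7 with GANT61, neither above background, against 154.8 with DMSO. It was at least 2.43-fold lower with either compound, and its measured differences were −1.60 and −1.50. PMVK, which adds the next phosphate, read 302 with cyclopamine, 217 with GANT61 and 503 with DMSO, so that it was lower by 0.74 and 1.21 on the log2 scale, and passed 2-fold only with GANT61. MVD, the decarboxylase that yields isopentenyl pyrophosphate, read 125 and 135 with cyclopamine and GANT61 and 329 with DMSO, with differences of −1.40 and −1.29. The last steps of the segment did not follow. IDI1, the isomerase of isopentenyl pyrophosphate, read 712, 661 and 734 with cyclopamine, GANT61 and DMSO, within 1 SD between probes of DMSO for each compound. FDPS, which condenses the isoprene units to farnesyl pyrophosphate, was the only gene of the segment above DMSO, at 756 with cyclopamine and 540 with GANT61 against 474 with DMSO. The segment median was −0.61 with cyclopamine and −0.54 with GANT61, which becomes −0.08 and 0.17 with reference gene scaling.

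**Figure D2:**
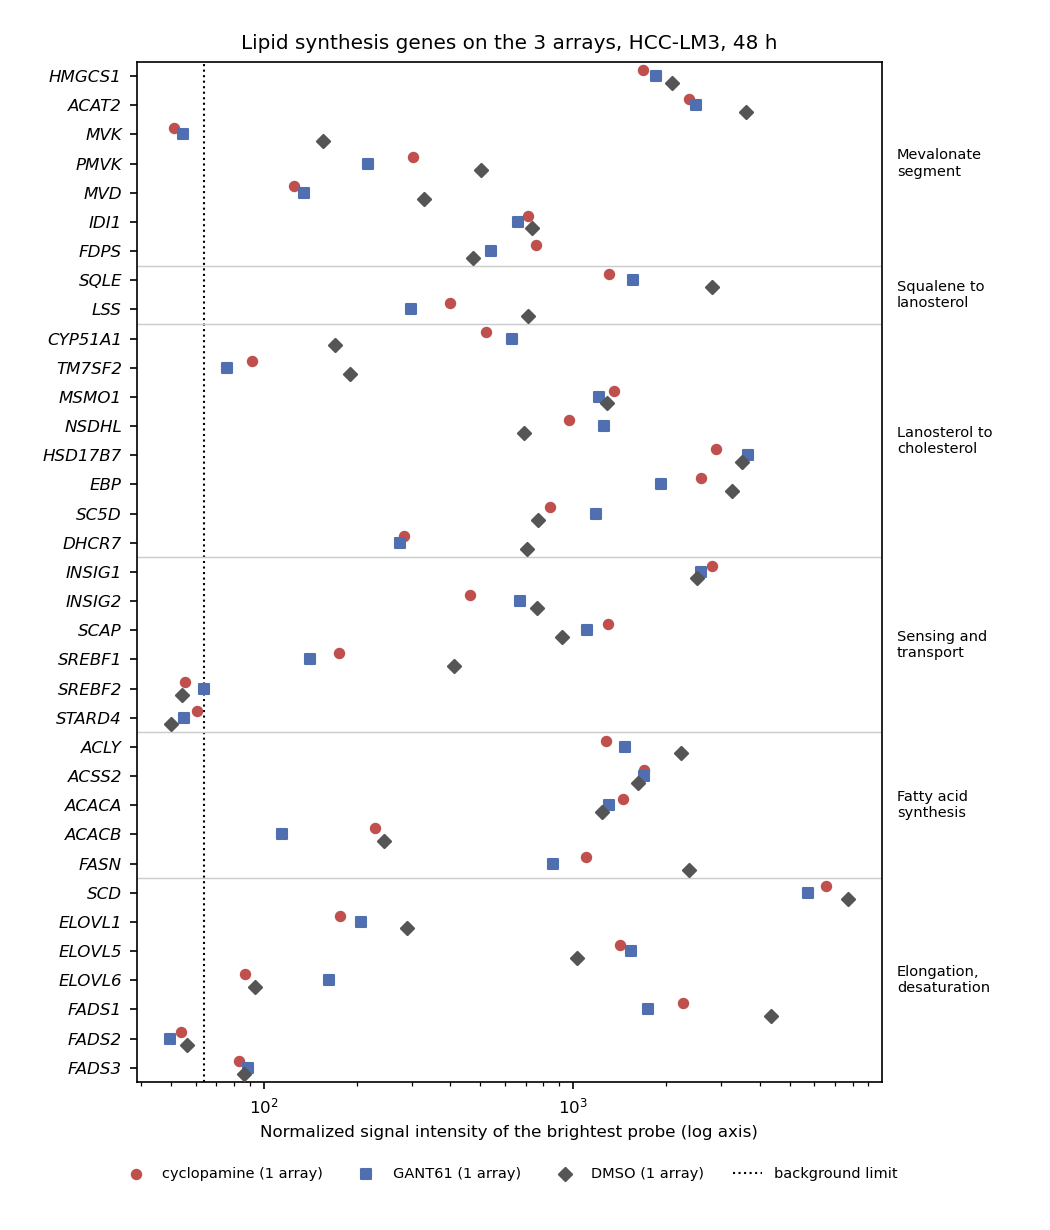
Normalized signal intensity of the brightest probe of each member (log axis) on the cyclopamine (red circle), GANT61 (blue square) and DMSO (grey diamond) arrays, 1 array each, in pathway order, with the background limit of 63.75 as a dotted line. The DMSO symbol lies to the right of both compounds for MVK, MVD, DHCR7, SREBF1 and FASN, and to the left of both for CYP51A1.

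Squalene is made by FDFT1, which is named only, then oxidized by SQLE and closed to lanosterol by LSS. SQLE, squalene epoxidase, read 1308 with cyclopamine, 1561 with GANT61 and 2803 with DMSO, a difference of −1.10 and −0.84. Its other probe, at 428, 391 and 602, gave −0.49 and −0.62, so that SQLE passed 2-fold with cyclopamine on 1 of its 2 probes. LSS read 399 and 298 with cyclopamine and GANT61, against 712 with DMSO, and differed by −0.83 and −1.26. Both genes were lower than with DMSO on every probe above background, and the median of the pair remained below DMSO with reference gene scaling, at −0.43 with cyclopamine and −0.35 with GANT61.

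From lanosterol to cholesterol the genes went apart. CYP51A1, the cytochrome P450 that removes the 14-alpha methyl group of lanosterol, read 523 with cyclopamine and 632 with GANT61, against 170 with DMSO. The difference of 1.62 with cyclopamine and 1.90 with GANT61, on 1 probe, was the only one of at least 2-fold upward among the members' brightest probes. TM7SF2, the sterol reductase of the next step, went the other way, at 91.1 and 75.6 with cyclopamine and GANT61 against 189.8 with DMSO, a difference of −1.06 and −1.33. NSDHL, which takes part in removal of the 4-methyl groups, read 966 with cyclopamine, 1251 with GANT61 and 691 with DMSO. It was above DMSO by 0.48 and 0.86 and below the 2-fold line in each case. MSMO1, the oxidase of the same demethylation, depended on the probe. Its brightest probe read 1355, 1210 and 1281 with cyclopamine, GANT61 and DMSO and lay within 0.08 of DMSO for each compound. Another read 145, 245 and 85.0, which gives 0.77 and 1.53, and the remaining probe, at 77.3, 71.6 and 82.0, gave −0.09 and −0.20. The gap of 1.61 between the first 2 of these probes with GANT61 was the largest of any member with several probes, where the median gap was 0.19 with each compound. HSD17B7, the keto reductase that completes the demethylation, read 2884, 3681 and 3505 with cyclopamine, GANT61 and DMSO, a difference of −0.28 and 0.07. EBP, the isomerase that moves the double bond of the B ring, read 2585 with cyclopamine, 1927 with GANT61 and 3248 with DMSO, and differed by −0.33 and −0.75. SC5D, the sterol desaturase, read 841 and 1187 with cyclopamine and GANT61 against 770 with DMSO, a difference of 0.13 and 0.62. DHCR7, which reduces 7-dehydrocholesterol to cholesterol, read 283 and 274 with cyclopamine and GANT61 against 707 with DMSO. Its other probe, at 177, 198 and 574, gave −1.70 and −1.53 beside −1.32 and −1.37 for the brightest, so both probes passed 2-fold with each compound. Of these 8 genes, 4 lay below and 4 above DMSO with each compound, with a median of −0.10 with cyclopamine and −0.01 with GANT61, or 0.44 and 0.70 with reference gene scaling.

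**Figure D3:**
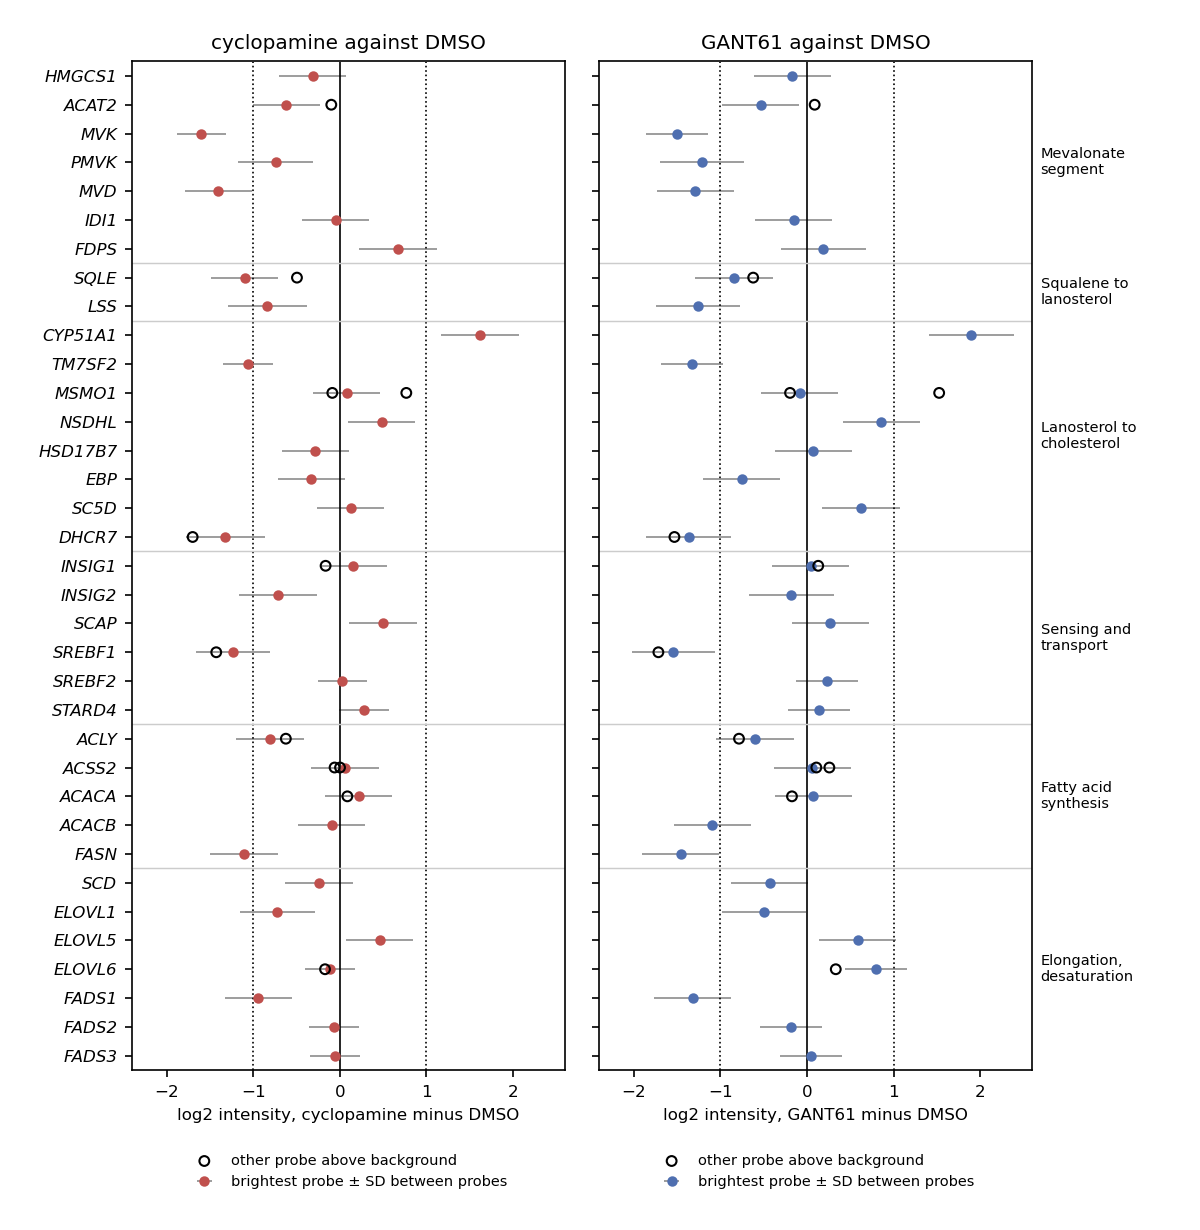
Log2 intensity with cyclopamine minus DMSO (left, red) and GANT61 minus DMSO (right, blue) for the brightest probe of each member, with bars of 1 SD between probes of the same gene, open circles for other probes above background and dotted lines at 2-fold. CYP51A1 is the only filled point right of the upper 2-fold line, at 1.62 and 1.90, while MVK, at −1.60, and SREBF1, at −1.54, are the filled points furthest left with cyclopamine and GANT61. MVK was not above background with either compound, and SREBF2, STARD4 and FADS2 on no array.

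Among the genes of sterol sensing, SREBF1, which encodes the SREBP-1 factors, read 175 with cyclopamine and 141 with GANT61 against 411 with DMSO. The brightest probe gave −1.23 and −1.54, and another, at 78.3 and 64.0 against 211, gave −1.43 and −1.72. SREBF2, the gene of SREBP-2, was not above background on any array, at 55.3 with cyclopamine, 63.7 with GANT61 and 54.2 with DMSO, so no fold is given. SCAP, the escort of the SREBPs, was higher than with DMSO in value but short of 2-fold, at 1297 and 1103 with cyclopamine and GANT61 against 916, a difference of 0.50 and 0.27. INSIG1, a retention factor and itself a known SREBP target, read 2808, 2591 and 2516 with cyclopamine, GANT61 and DMSO, within 0.16 of DMSO for each compound. INSIG2 read 465 with cyclopamine, 671 with GANT61 and 761 with DMSO, and differed by −0.71 and −0.18. STARD4, a sterol carrier between membranes, was not above background on any array. The protease genes beside this list, which release the SREBPs in the Golgi, read 810, 618 and 1530 for MBTPS1 and 932, 516 and 844 for MBTPS2, with cyclopamine, GANT61 and DMSO. MBTPS1 differed from DMSO by −0.92 with cyclopamine and −1.31 with GANT61, and MBTPS2 by 0.14 and −0.71. Of 5 such further sterol genes above background, MBTPS1 with GANT61 was the only one to pass 2-fold against DMSO. SPRING1, a cofactor of SREBP processing, stood at 0.09 and 0.58, and TMEM97, which binds sterols, at −0.10 and 0.38. None of 10 genes of the isoprenoid branches, which lead to dolichol, ubiquinone and prenyl groups, differed by 2-fold from DMSO with either compound. Over all genes, 6.31% were at least 2-fold lower and 4.70% higher with cyclopamine, and 9.64% and 8.16% with GANT61. Lists this short cannot be told from those shares. Among the isoprenoid genes, DHDDS, of dolichol synthesis, came closest, at −0.92 with cyclopamine and −0.86 with GANT61.

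In fatty acid synthesis, FASN carried the largest difference from DMSO. FASN read 1102 with cyclopamine and 862 with GANT61 against 2370 with DMSO, lower by 1.11 and 1.46 on the log2 scale. ACLY, which splits citrate to supply acetyl-CoA, read 1279, 1473 and 2236 with cyclopamine, GANT61 and DMSO, and differed by −0.81 and −0.60. The other probe of ACLY gave −0.62 and −0.79, all 4 values short of 2-fold. ACSS2, which makes acetyl-CoA from acetate, read 1689 and 1690 with cyclopamine and GANT61 against 1619 with DMSO, a difference of 0.06 with each. ACACA, the cytosolic acetyl-CoA carboxylase, read 1442, 1302 and 1238 in the same order and differed by 0.22 and 0.07. Its mitochondrial counterpart ACACB read 228 with cyclopamine, 114 with GANT61 and 243 with DMSO, so that it was close to DMSO with cyclopamine, at −0.09, and 2-fold lower with GANT61, at −1.09. These 5 genes had a median of −0.09 for cyclopamine and −0.60 for GANT61, and 0.45 and 0.10 with reference gene scaling. SLC25A1, the mitochondrial citrate carrier that feeds ACLY, is outside the 36 genes and was further from DMSO than any of them, at 322 and 230 with cyclopamine and GANT61 against 1963 with DMSO, a difference of −2.61 and −3.10. TECR, the enoyl reductase of fatty acid elongation, read 661 and 570 against 1956, a difference of −1.57 and −1.78. Of 16 further genes of fatty acid and lipid synthesis above background, 3 were at least 2-fold lower with cyclopamine (SLC25A1, TECR and AGPAT2) and none was higher. This is 18.8% lower, against 6.31% of all genes lower and 4.70% higher, but 3 of 16 genes are too few to be told from those shares. With GANT61, 2 were lower (SLC25A1 and TECR) and ACSL1, which activates long-chain fatty acids, was higher. These shares, 12.5% and 6.25%, are near the 9.64% and 8.16% of all genes.

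Elongases and desaturases finish the fatty acids. FADS1, the delta-5 desaturase, read 2270 with cyclopamine and 1742 with GANT61 against 4353 with DMSO, and differed by −0.94 and −1.32. Its neighbours in the gene cluster on chromosome 11 (GRCh38.p14; FADS1 at 61799627 to 61817003, FADS2 at 61816203 to 61867354, FADS3 at 61873526 to 61892224) gave no such readings. FADS2, the delta-6 desaturase, was at 54.0, 49.7 and 56.4 with cyclopamine, GANT61 and DMSO and not above background on any array. FADS3 read 82.8, 88.9 and 86.0 and lay within 0.05 of DMSO with each compound. SCD, the delta-9 desaturase, read 6555 with cyclopamine, 5742 with GANT61 and 7737 with DMSO, differences of −0.24 and −0.43 that were within 1 SD between probes. ELOVL1, an elongase of very long chains, read 176, 206 and 290 and differed by −0.72 and −0.50. ELOVL5, which lengthens polyunsaturated chains, read 1413 and 1540 with cyclopamine and GANT61 against 1026 with DMSO, a difference of 0.46 and 0.59. ELOVL6, which lengthens palmitate, read 86.4 with cyclopamine, 162 with GANT61 and 93.1 with DMSO. It was thus near DMSO with cyclopamine, at −0.11, and above it with GANT61, at 0.80. Over the 6 genes of this step above background the median was −0.17 with cyclopamine and −0.19 with GANT61, and 0.36 and 0.51 with reference gene scaling.

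The compounds were compared with each other at the same dose and time, over the 32 members above background. MVK was not above background with either compound and is not compared. For the other 16 enzymes of sterol synthesis, no gene differed by 2-fold between cyclopamine, the steroidal compound, and GANT61. Among all genes 2.31% passed 2-fold downward and 3.40% upward in this comparison. With shares this small, the absence of any among 16 genes does not set these enzymes apart from other genes. These 16 enzymes had a median difference of −0.017, against −0.0096 over all genes, with 8 lower and 8 higher to any extent and a range of −0.50 to 0.48. With reference gene scaling the median is −0.18, where that of all genes is also −0.18. Intervals of 2 SD between probes, which leave out the variation between cultures, held 0 for most steps. CYP51A1 was at −0.27 (interval −0.63 to 0.09), SQLE at −0.26 (−0.65 to 0.14), DHCR7 at 0.05 (−0.31 to 0.40), HMGCS1 at −0.14 (−0.53 to 0.25), MVD at −0.11 (−0.59 to 0.36) and TM7SF2 at 0.27 (−0.18 to 0.72). These intervals still admit differences of up to 0.72 on the log2 scale and do not show that the compounds act alike.

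With the deposited scaling, the sterol enzymes that stood apart between the compounds did so by less than 2-fold and in both directions. FDPS was 0.48 higher with cyclopamine than with GANT61 (interval 0.12 to 0.84), PMVK 0.48 higher (0.04 to 0.91), LSS 0.42 higher (0.06 to 0.78) and EBP 0.42 higher (0.03 to 0.82). SC5D was 0.50 lower with cyclopamine (−0.89 to −0.10), while NSDHL, at −0.37 (−0.76 to 0.02), and HSD17B7, at −0.35 (−0.74 to 0.04), had intervals that reached 0. Reference gene scaling lowers each of these values and interval ends by 0.17. The intervals of FDPS, PMVK, LSS and EBP then hold 0. Those of NSDHL, HSD17B7, CYP51A1 and SQLE then lie wholly below 0, as that of SC5D does with either scaling. Which enzymes stood apart, and in which direction, thus depends on the scaling. The 3 segments of the sterol route had medians of 0.01 (without MVK), 0.08 and −0.11 in pathway order, or −0.15, −0.08 and −0.28 with reference gene scaling. For MSMO1 the probes disagreed again, at 0.16 for the brightest and −0.76 for the probe that had stood above DMSO. SQLE gave −0.26 on its brightest probe, from which its interval comes, and 0.13 on its other. DHCR7 gave 0.05 and −0.17. Over all members, 7 of 12 other probes above background lay on the same side of 0 as the brightest probe in this comparison.

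**Figure D4:**
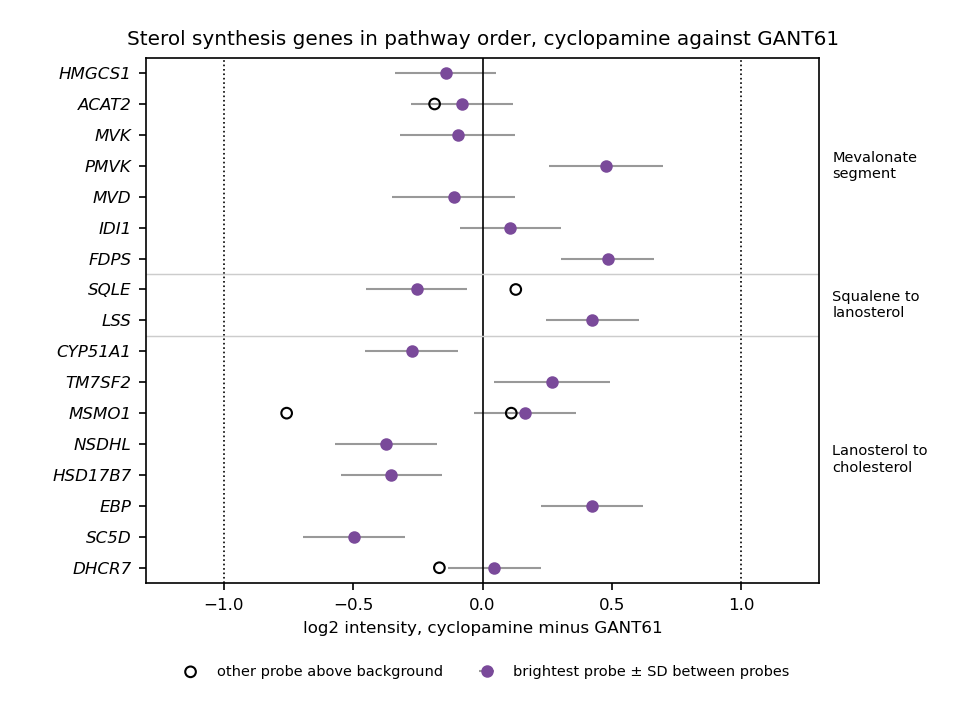
Log2 intensity with cyclopamine minus GANT61 for the sterol synthesis enzymes in pathway order, with bars of 1 SD between probes of the same gene, open circles for other probes above background and dotted lines at 2-fold. All filled points lie between −0.50 (SC5D) and 0.48 (FDPS), inside the 2-fold lines, and MVK was not above background with either compound.

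Outside sterol synthesis, the differences between the compounds were in fatty acid genes and in INSIG2. ACACB, at 228 with cyclopamine and 114 with GANT61, was the only member past 2-fold, at 1.00 (interval 0.53 to 1.48), where 3.40% of all genes were at least 2-fold higher. It lies on the 2-fold line and falls below it with normexp background correction and with reference gene scaling. ELOVL6 was lower with cyclopamine by 0.90 on the log2 scale (interval −1.35 to −0.46), and its dimmer probe was above background only with GANT61. INSIG2 was lower with cyclopamine by 0.53 (−0.89 to −0.17). FASN, at 0.35 (−0.04 to 0.75), FADS1, at 0.38 (−0.01 to 0.77), and SREBF1, at 0.31 (−0.13 to 0.75), had intervals that held 0. Over the 11 fatty acid enzymes above background, the median difference was −0.001, and −0.17 with reference gene scaling. Of the 16 further lipid synthesis genes, HACD3, a dehydratase of fatty acid elongation, was the only one past 2-fold between the compounds. It read 2870 with cyclopamine and 6112 with GANT61, a difference of −1.09. No gene of the isoprenoid branches and no further sterol gene passed 2-fold in this comparison, where 2.31% of all genes were lower and 3.40% higher.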

How the data were processed

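HCC-LM3 expression was measured on 3 Illumina HumanHT-12 v4 arrays, 1 per condition, grouped by their labels. The authors deposited a normalized signal intensity, on a linear scale, for each of 47319 probes and array. Ranked by brightness, the 3 arrays hold equal values at the top 12545 ranks and differ by at most 0.886% at any rank, so the intensities had been normalized between arrays. The normalization software was not given in the sources used here. Such a normalization fixes each array's overall level and cannot show a shift of all genes. Another deposited table holds values before normalization in 6 columns whose names match no sample, and these were not used.

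The platform annotation gives 1 gene symbol to 30110 probes and several to 8, which were not used, and 17201 probes are unnamed here. By gene identifier, 30071 matched the RefSeq gene table of GRCh38.p14. Differences are of log2 intensities of the brightest probe (highest mean log2 over the 3 arrays). A value not above the background limit was replaced by the limit for an at least N-fold statement. The SD between probes is the median absolute deviation between probe pairs of a gene, scaled by 1.4826 and to a single probe. The members and gene lists were chosen with earlier results of these data known. All members and cell markers could be named, and of each further list at most 4 genes with the largest absolute differences, while ACSL1 was named after its values were seen. Motifs were searched on both strands of promoter windows of RefSeq, found for 32 members.

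Alternatives were the mean of all probes, normexp background correction with an offset of 50 and quantile normalization (limma 3.58.1 in R 4.3.3), subtraction of the most common intensity with an offset of 16, no filter, a limit of 2 times the most common intensity, reference gene scaling, a 1.5-fold threshold, and medians relative to all genes. Other steps used Python 3.11.15 with numpy 2.4.6 and pandas 2.3.3, and were tested on simulated arrays. No test was made, since precision is limited by the number of arrays.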

Additional observations from a re-analysis of the deposited data

How the results depend on the processing

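No paired analysis was possible because each condition has 1 array. Reference gene scaling changed most. It left 1 member at least 2-fold lower (MVK, by its measured value and not as a bound) and 4 higher with cyclopamine against DMSO, where all genes had 1.69% lower and 21.5% higher. It gave 0 lower and 5 higher with GANT61 against DMSO (2.20% and 34.5% of all genes). With cyclopamine against GANT61 it gave 1 lower and 0 higher (3.96% and 2.09%). The members' medians reversed to 0.24, 0.40 and −0.14, where those of all genes lay at 0.57, 0.72 and −0.18. This follows from the construction of the scaling, which adds the same value to all genes of an array. The mean of all probes turned the median of cyclopamine minus GANT61 to −0.076, and SQLE and SREBF1 with cyclopamine and LSS with GANT61 no longer passed 2-fold. The LSS mean takes in probes at 48.6 to 56.2 and the SREBF1 mean a probe at 39.8 to 44.5. These were above background on no array and draw the means toward 0. Normexp left 0 members past 2-fold upward in cyclopamine against GANT61, losing ACACB, and TM7SF2 with cyclopamine and ACACB with GANT61 also no longer passed 2-fold against DMSO. Subtraction of background with an offset of 16 brought ELOVL6 past 2-fold, giving 2 members higher with GANT61 than with DMSO and 1 lower with cyclopamine than with GANT61. At 1.5-fold, 14 members were lower and 2 higher with cyclopamine against DMSO (16.6% and 15.7% of all genes), 5 were higher with GANT61 against DMSO (21.0%), and 1 was lower with cyclopamine against GANT61 (10.3%). No filter, the limit of 2 times the most common intensity, and medians relative to all genes kept every count within 1.5 times and every median's direction. Of 105 differences of single members, 7 moved by more than the SD between probes with the mean of all probes, 4 with subtraction and 0 with normexp. No filter and the other limit do not alter single differences. Reference gene scaling moved 70, those against DMSO, by construction, since its shifts of 0.54 and 0.70 exceed every SD between probes. No member past 2-fold changed direction. With reference gene scaling this was fixed in advance against DMSO, since both shifts are smaller than a 2-fold difference. Low signal limits SREBF2, STARD4 and FADS2 on all arrays and MVK with both compounds.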

Other observations

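Sterol uptake, efflux and storage held 12 genes above background, of 14 with a probe. SCARB1, the receptor for high-density lipoprotein, read 291 with cyclopamine and 268 with GANT61 against 1234 with DMSO, a difference of −2.09 and −2.20. NPC1, which exports cholesterol from lysosomes, differed between the compounds more than any member of the synthesis genes, at 580 with cyclopamine, 2042 with GANT61 and 745 with DMSO. It was lower with cyclopamine than with GANT61 by 1.82 on the log2 scale, and stood at −0.36 and 1.46 against DMSO. ABCA1, which exports cholesterol from the cell, read 104, 186 and 67.9 with cyclopamine, GANT61 and DMSO, a difference from DMSO of 0.62 and 1.46. NR1H3, the oxysterol receptor LXR-alpha, read 1573 with cyclopamine and 791 with GANT61 against 475 with DMSO, or 1.73 and 0.74. As a median these 12 genes stood at −0.27 for cyclopamine and 0.0004 for GANT61 against DMSO, or at 0.27 and 0.70 with reference gene scaling.

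Fatty acid oxidation had 14 genes above background. ACADVL, which starts the oxidation of very long chains in mitochondria, read 2103 with cyclopamine and 1789 with GANT61 against 5670 with DMSO, a difference of −1.43 and −1.66, and was the only gene of the list at least 2-fold lower with cyclopamine. With GANT61 it was joined by CPT2, at −1.45, and by ACADS, at −1.25. The shares lower were 7.14% with cyclopamine and 21.4% with GANT61, against 6.31% and 9.64% of all genes. The 21.4% is 3 of 14 genes, too few to be told from the share of all genes. CPT1A, which admits long chains to mitochondria, read 110 with cyclopamine, 202 with GANT61 and 207 with DMSO. The median of the list was −0.20 with cyclopamine and −0.38 with GANT61, and 0.34 and 0.33 with reference gene scaling.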
